A study of Mus musculus with 9 samples.

Results

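Transcriptomes of *Sirt6-/-* mouse embryonic fibroblasts (MEFs) were compared with those of wild-type (WT) MEFs. MEFs are fibroblasts, the matrix-producing cells of connective tissue, cultured from embryonic mice. The samples were chosen by their genotype labels alone, and the comparison used 6 of the 9 samples of the series: 3 labelled *Sirt6-/-* and 3 labelled WT. All 6 carry the strain label C57BL/6 and were grown in DMEM with 10% fetal bovine serum, and no treatment is given for them. One note shared by all samples of the series gives the source mice as wildtype, *Sirt6-/-*, *P53-/-* or *Atm-/-P53-/-*, and the genotype labels of the samples used here name no P53 allele. The methods describe both primary MEFs and immortalised *Sirt6-/-* MEFs that came from another laboratory, and they do not say which of them were sequenced. Differences due to genotype, to the derivation of the cells and to immortalisation therefore cannot be told apart. Nothing says that the 3 samples of a genotype came from separate embryos or cultures, so p-values measure the spread between these samples, which may be technical.

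SIRT6 is an NAD-dependent deacetylase of the sirtuin family that sits on chromatin and removes acetyl groups from histone H3. It is known for holding down genes of glycolysis, of inflammation driven by NF-kB and of ribosome production directed by Myc, and for its part in DNA repair. Mice without it show features of early ageing. The comparison asked which families of genes, beyond those of glycolysis, differed between cells with and without it.

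Each sample had between 32187040 and 33837949 reads counted on genes, and 13206 of 24341 genes had enough reads to be tested. Levels of 1 gene are given as CPM (counts scaled to a common library size, TMM-normalized), as the mean ± SD of the 3 samples of a genotype, and effects as log2 fold changes (*Sirt6-/-* over WT) ± the standard error (SE) of edgeR's quasi-likelihood fit. A count of 3 corresponds to 0.0878 to 0.0934 CPM. *Sirt6* (chromosome 10 from 81621785 to 81627797, GRCm38) had 487, 402 and 472 reads in WT and 4, 5 and 7 in *Sirt6-/-*, which matches the labels (log2 fold change -6.43 ± 0.23, adjusted p = 2.9e-12). Of the other sirtuins, *Sirt1* rose from 14.4 ± 1.34 to 30.8 ± 1.28 CPM and *Sirt3* from 3.59 ± 0.251 to 6.68 ± 0.295 CPM. *Sirt7* fell from 18.2 ± 0.962 to 15.3 ± 1.24 CPM (adjusted p = 0.028), a call that was lost when counts were scaled by library totals or when replicate 2 or 3 of either genotype was left out, and *Sirt2*, *Sirt4* and *Sirt5* did not pass the test.

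Both groups expressed fibroblast genes. *Col1a1*, *Col1a2*, *Fn1* and *Vim* had between 2252 and 9232 CPM in every sample, and the summed level of the 24 listed fibroblast genes was 35417 to 38332 CPM in WT and 25337 to 25924 CPM in *Sirt6-/-*. The listed markers of epithelial, endothelial, blood and skeletal muscle cells were low. Mesothelium had no list, and several genes known from it were high in WT, as given further below. The 21 epithelial markers together had 59.3 to 69.3 CPM in WT and 91.8 to 97.9 CPM in *Sirt6-/-*, the 12 endothelial markers 8.53 to 11.2 and 5.64 to 7.69 CPM, the 13 blood cell markers 20.5 to 22.3 and 21.7 to 26.9 CPM, and the 18 skeletal muscle markers 25.2 to 31.6 and 2.75 to 3.20 CPM. The leukocyte gene *Ptprc* and the endothelial genes *Pecam1* and *Cdh5* stayed under 0.5 CPM in each sample. Neural and glial markers summed to 307 to 328 and 340 to 368 CPM, mostly from *Ncam1* in WT and from *Nes* in *Sirt6-/-*. *Ncam1* fell from 303 ± 11.2 to 76.4 ± 3.43 CPM and *Nes*, an intermediate filament of progenitor cells, rose from 3.56 ± 0.479 to 192 ± 8.78 CPM. *Xist* was at 2.59 to 4.55 CPM in all 6 samples and Y-linked genes were present in all 6. *Ddx3y* had 225 ± 13.1 CPM in WT and 90.2 ± 3.85 in *Sirt6-/-*.

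The cells without SIRT6 differed from WT across most of the transcriptome. Of the genes tested, 10114 (76.6%) differed at an adjusted p under 0.05, 5176 (39.2%) with a higher and 4938 (37.4%) with a lower level in *Sirt6-/-*. At least 2-fold rises were found for 2315 genes (17.5%) and at least 2-fold falls for 1557 (11.8%). Samples of the same genotype correlated across genes with r of 0.9952 to 0.9966 on the log2 scale and samples of different genotypes with r of 0.851 to 0.859. The median log2 fold change was 0.02. A total of 80 genes were under 0.1 CPM in every WT sample and at 1 CPM or more in every *Sirt6-/-* sample, and 66 genes showed the reverse. Against this background the call of a single gene says little, so gene families are described by how many tested members rose and fell and by their median. Members of developmental or cytokine families that are silent in both genotypes were not tested, and a member near 0 in one genotype could be tested only by being high in the other. Fewer cells of a type and less RNA per cell cannot be told apart in bulk RNA.

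**Figure D1:**
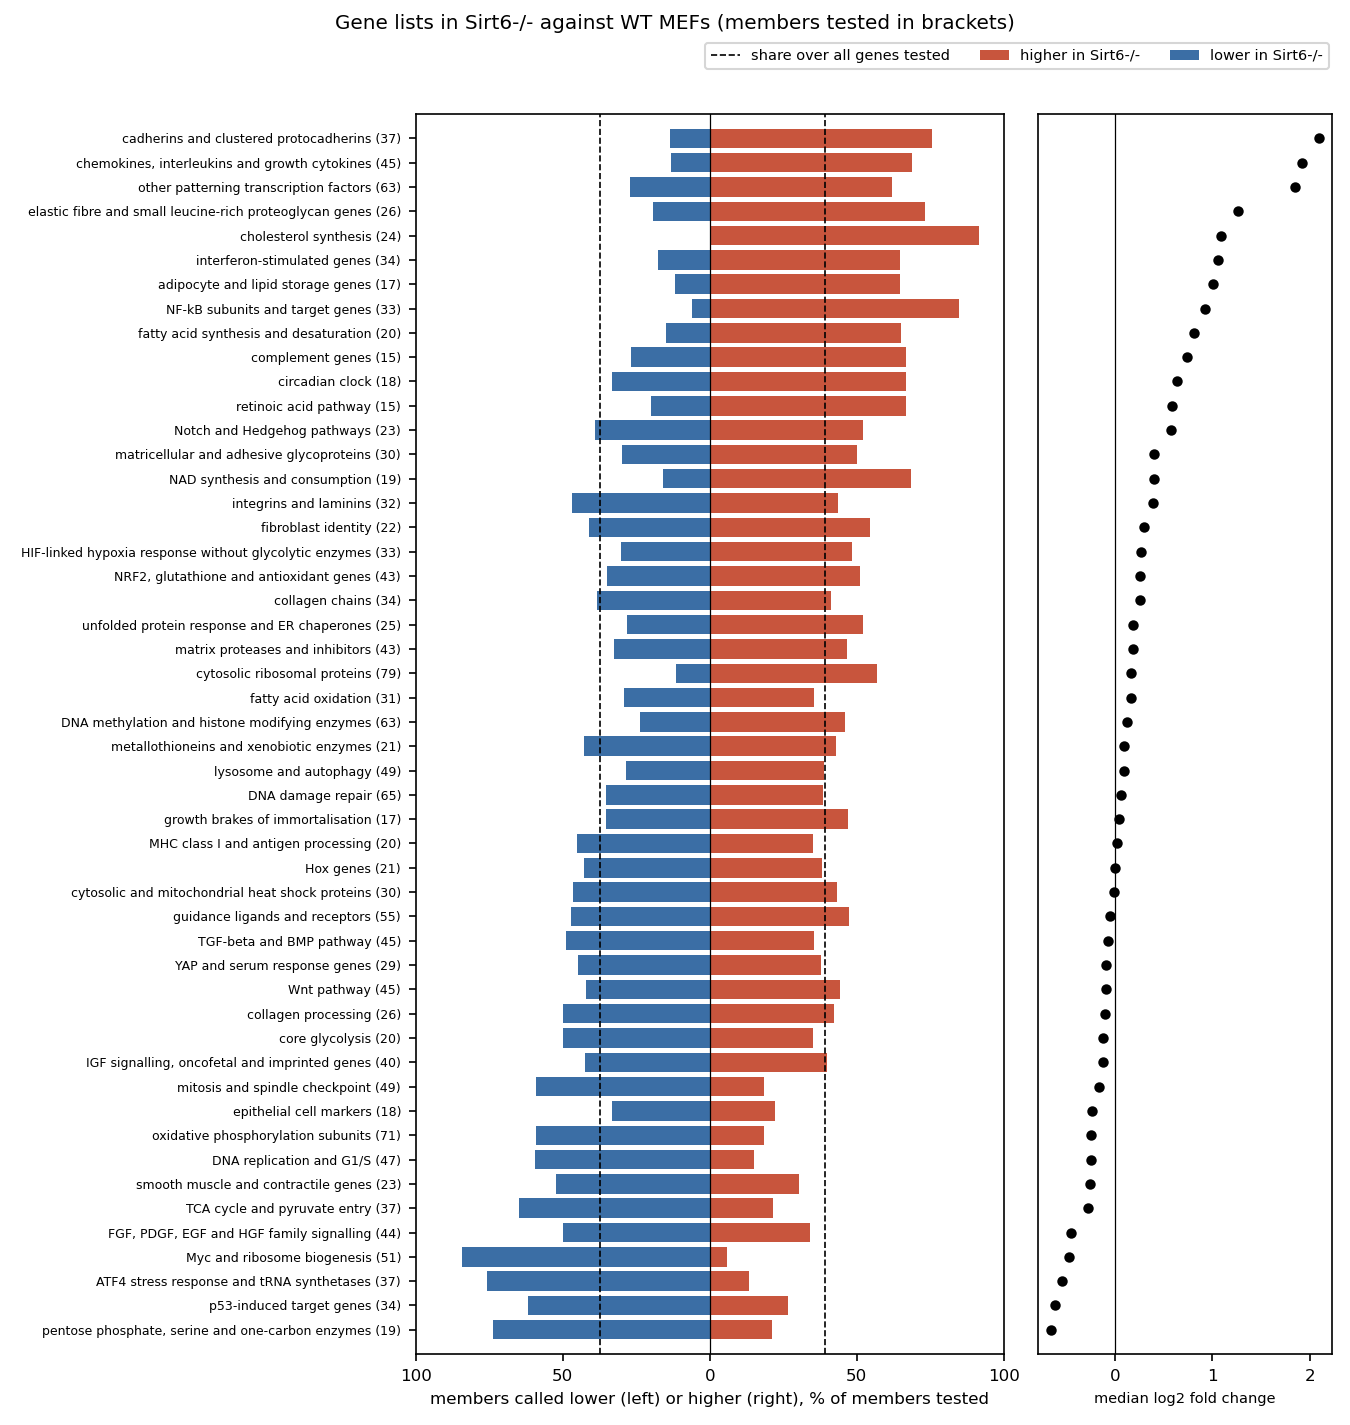
Share of tested members called higher (red, right) or lower (blue, left) in Sirt6-/- for each gene list with at least 15 tested members, beside the median log2 fold change of the list. Dashed lines mark 39.2% and 37.4%, the shares over all genes tested. Cholesterol synthesis and NF-kB lists lie far to the right, and ribosome biogenesis and ATF4 lists far to the left.

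Inflammatory genes were higher in *Sirt6-/-*. Of 35 listed NF-kB subunits and targets 33 were tested, and 28 rose and 2 fell, with a median log2 fold change of 0.92. All 5 genes of the NF-kB subunits rose: *Nfkb1* from 93.9 ± 2.72 to 399 ± 5.85 CPM, and *Rela*, *Relb*, *Rel* and *Nfkb2* by 0.50 to 1.04 on the log2 scale. The inhibitor *Nfkbia*, itself an NF-kB target, rose from 29.99 ± 3.86 to 104 ± 3.12 CPM. The subunits, *Nfkbia* and the inhibitor *Tnfaip3* were singled out after their values were seen. *Nos2* (inducible nitric oxide synthase, chromosome 11 from 78920787 to 78960254) had 0.581, 0.405 and 0.186 CPM in WT and 284, 291 and 325 CPM in *Sirt6-/-* (log2 fold change 9.57 ± 0.13, adjusted p = 1.3e-16). *Lcn2*, an iron-sequestering acute-phase protein, had 2.93, 2.65 and 2.44 CPM in WT and 655, 780.2 and 734 CPM in *Sirt6-/-* (log2 fold change 8.08 ± 0.09). In both genes every *Sirt6-/-* sample was more than 100 times above every WT sample. *Saa3*, another acute-phase gene, rose from 3.76 ± 0.979 to 187 ± 21.9 CPM. The response did not take in every target. *Vcam1*, the leukocyte adhesion molecule, fell from 966 ± 36.1 to 215 ± 9.98 CPM, and *Nfkbib* fell from 19.5 ± 1.27 to 14.9 ± 2.23 CPM. The feedback inhibitor *Tnfaip3* did not pass the test (22.7, 35.2 and 24.6 CPM in WT against 24.4, 24.1 and 23.6 CPM).

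Chemokines, interleukins and colony-stimulating factors showed large rises. Of 57 listed genes 45 were tested, and 31 rose and 6 fell. At least 2-fold rises were found for 29 of them and at least 2-fold falls for 3, with a median log2 fold change of 1.92. The neutrophil-attracting chemokine *Ppbp* (chromosome 5 from 90768518 to 90770063) had 23.2, 23.5 and 20.97 CPM in WT and 3643, 3586 and 3959 CPM in *Sirt6-/-* (log2 fold change 7.37 ± 0.07, a 165-fold rise). *Cxcl1* (chromosome 5 from 90891241 to 90893115) rose from 34.7, 25.6 and 30.1 to 1924, 2125 and 2109 CPM (log2 fold change 6.09 ± 0.09, adjusted p = 3.3e-16). *Cxcl5* rose from 2.72 ± 0.155 to 355 ± 10.4 CPM. In each of these chemokines every *Sirt6-/-* sample was more than 50 times above every WT sample. *Il1rl1*, the receptor of interleukin-33, rose from 55.1 ± 4.697 to 2053 ± 208 CPM, and its ligand *Il33* fell from 4.795 ± 0.467 to 1.25 ± 0.274 CPM. The stromal chemokine *Cxcl12*, which retains blood progenitors in their niche, fell from 2140 ± 118 to 511 ± 40.8 CPM. *Il22ra1*, a subunit of the interleukin-22 receptor, was at 35.2 ± 0.2404 CPM in WT and had 0, 0 and 2 reads in the *Sirt6-/-* samples.

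The CXC genes lie next to each other, and the window of 20 neighbouring tested genes that began with *Cxcl5* and ended with *Cxcl10* (chromosome 5 from 90759360 to 92348889) had the highest median log2 fold change of all 12241 such windows, at 2.94. In it 13 genes were called higher and 3 lower. Of these, *Pf4*, *Cxcl3*, *Btc*, *Ppef2* and *Cxcl10* had WT means of only 0.0821 to 0.144 CPM. They could be tested only through their level in *Sirt6-/-*, while *Cxcl2*, *Cxcl15*, *Cxcl9* and *Areg* were low in both genotypes and left out. The window's rank and its count of rises therefore depend in part on which genes could be tested. The EGF-family ligand *Ereg* (epiregulin) rose from 4.19 ± 0.119 to 201 ± 34.02 CPM and *Btc* (betacellulin) from 0.144 ± 0.129 to 3.85 ± 0.355 CPM, while the neighbouring ligand *Epgn* did not pass the test (log2 fold change -0.81 ± 0.53, adjusted p = 0.17) and *Areg* had too few reads to be tested. Genes of the same stretch that encode neither chemokines nor EGF-type ligands were of both kinds. *G3bp2* had a log2 fold change of -0.24 ± 0.04 and *Uso1* of -0.04 ± 0.05, while *U90926* rose from 3.99 ± 1.34 to 68.02 ± 4.15 CPM, and *Ppef2* and *Naaa* rose as well. *Cxcl10*, a chemokine induced by interferon at the far end, rose from 0.144 ± 0.143 to 4.15 ± 0.339 CPM. These neighbours were named after their values were seen.

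**Figure D2:**
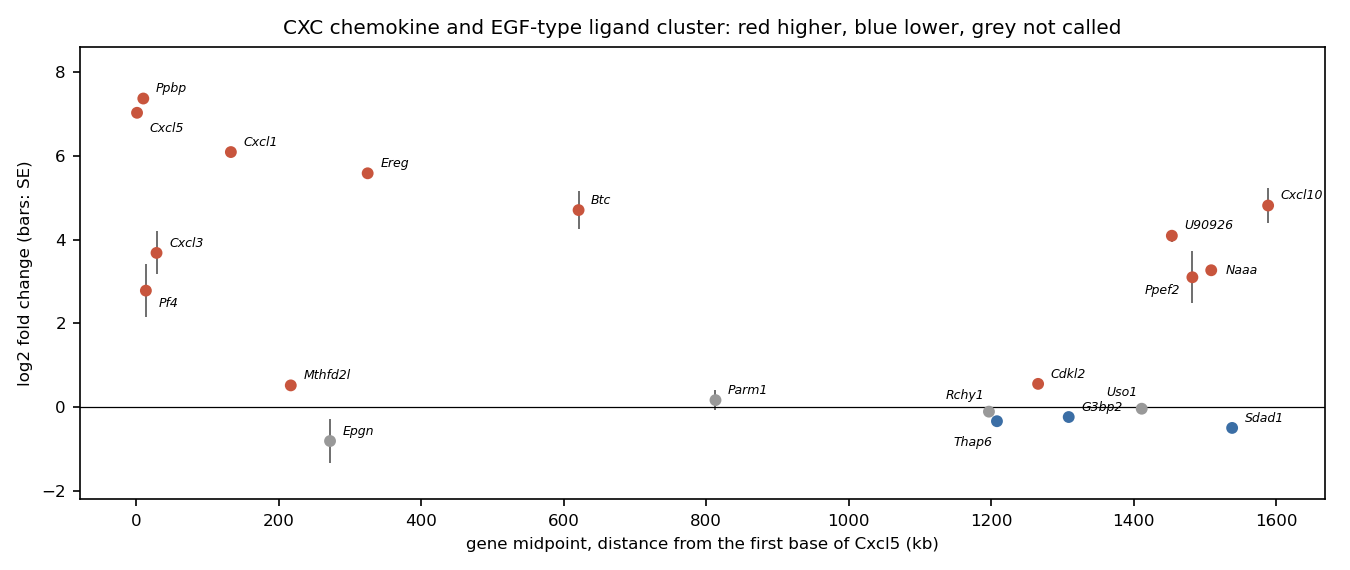
Log2 fold change (Sirt6-/- over WT, bars are SE) of each tested gene of the CXC chemokine region against the distance of its midpoint from the first base of Cxcl5, in kb. Ppbp, Cxcl5, Cxcl1, Ereg, Btc, U90926 and Cxcl10 lie above 4, and the genes from Parm1 to Uso1 lie within 1 of 0.

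The promoters of the NF-kB list and of the chemokine and interleukin list were read for 10-base NF-kB sites. The letters searched were GGG, any 2 bases and TTTCC in a row, on both strands, in the 250 bases before and 50 bases after each annotated start (RefSeq, GRCm38.p6). The site was present in 1.63% of all 32851 promoters in the table, in 2.05% of the 10466 tested genes with a promoter there, in 5 of 27 tested NF-kB list members (18.5%) and in 9 of 34 tested chemokine and interleukin list members (26.5%). Members of both lists were scanned whatever their call, so these shares describe the lists and not the changes between the genotypes. Promoters of 4 genes are shown because their genes rose and hold the site close to the start. Capitals mark the site. *Cxcl1* holds it at positions -89 and -71 from the start, *Cxcl3* at -73, *Il6* at -44 and *Nfkbia* at -29. They were chosen after the values were seen, and a match to letters is a description, not a measured binding site.
Cxcl1, chr5:90890995-90891294, plus strand: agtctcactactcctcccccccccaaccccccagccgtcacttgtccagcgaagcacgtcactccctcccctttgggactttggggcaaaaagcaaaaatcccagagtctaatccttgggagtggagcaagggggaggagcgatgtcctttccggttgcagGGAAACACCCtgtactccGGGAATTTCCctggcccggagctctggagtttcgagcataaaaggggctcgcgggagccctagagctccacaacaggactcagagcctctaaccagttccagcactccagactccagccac
Cxcl3, chr5:90785851-90786150, plus strand: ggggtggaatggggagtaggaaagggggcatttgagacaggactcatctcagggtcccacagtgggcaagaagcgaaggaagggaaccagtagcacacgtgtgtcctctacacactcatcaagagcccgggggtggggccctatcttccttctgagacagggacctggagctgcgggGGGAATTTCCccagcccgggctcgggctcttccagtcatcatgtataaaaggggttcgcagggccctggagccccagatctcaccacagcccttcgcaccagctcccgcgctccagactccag
Il6, chr5:30012864-30013163, plus strand: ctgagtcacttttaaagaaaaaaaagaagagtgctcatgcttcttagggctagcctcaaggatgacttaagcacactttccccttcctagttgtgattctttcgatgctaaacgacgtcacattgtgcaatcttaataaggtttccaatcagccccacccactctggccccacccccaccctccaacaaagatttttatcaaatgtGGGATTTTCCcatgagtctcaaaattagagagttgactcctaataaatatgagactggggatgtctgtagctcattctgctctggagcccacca
Nfkbia, chr12:55492598-55492897, minus strand: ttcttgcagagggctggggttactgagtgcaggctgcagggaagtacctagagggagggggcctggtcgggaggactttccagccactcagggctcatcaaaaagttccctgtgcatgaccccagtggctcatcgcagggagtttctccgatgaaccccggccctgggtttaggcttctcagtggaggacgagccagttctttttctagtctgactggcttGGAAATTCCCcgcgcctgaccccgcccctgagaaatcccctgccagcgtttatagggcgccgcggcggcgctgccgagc
Of these genes, *Cxcl3* rose from 0.122, 0.0623 and 0.0619 to 1.197, 0.904 and 1.199 CPM and *Il6* from 6.54 ± 1.89 to 24.5 ± 3.72 CPM. The site was also found at genes that went the other way or did not pass the test, such as *Csf1*, which fell from 1302 ± 83.6 to 655 ± 25.6 CPM, and *Ccl20* (log2 fold change -0.13 ± 0.30). These were picked from the genes with a site after their values were seen.

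Genes that respond to interferon were higher on balance. Of 50 listed genes 34 were tested, and 22 rose and 6 fell (median log2 fold change 1.05). *Ifit3*, which binds foreign RNA in complexes with its relatives, rose from 0.658 ± 0.165 to 35.6 ± 0.903 CPM, *Gbp2*, a guanylate-binding GTPase, from 0.914 ± 0.271 to 23.1 ± 1.897 CPM, and *Mb21d1*, the DNA sensor cGAS, from 0.534 ± 0.331 to 18.9 ± 2.02 CPM. Downstream of that sensor the adaptor STING (*Tmem173*) fell from 28.6 ± 0.844 to 10.2 ± 0.712 CPM. *Bst2*, the virus tether, fell from 34.5, 25.9 and 27.3 to 5.505, 7.38 and 6.61 CPM. Of 15 tested complement genes 10 rose and 4 fell: *C3*, the central component, rose from 385 ± 79.7 to 1290 ± 66.04 CPM, and the protective surface protein *Cd55* fell from 9.03 ± 3.78 to 0.161 ± 0.278 CPM.

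Genes of sterol synthesis were higher almost throughout the pathway. Of 25 listed genes 24 were tested, and 22 rose and none fell, with a median log2 fold change of 1.09. Nearly every enzyme from acetyl-CoA to cholesterol was included. *Hmgcs1*, HMG-CoA synthase (chromosome 13 from 119690379 to 119708260), had 153 ± 10.7 CPM in WT and 562 ± 24.5 in *Sirt6-/-*. *Mvd* (chromosome 8 from 122433601 to 122443422) had 22.1, 21.4 and 22.95 CPM in WT and 118, 113 and 128 CPM in *Sirt6-/-* (log2 fold change 2.43 ± 0.06, adjusted p = 9.9e-14). *Nsdhl* rose from 23.4 ± 0.289 to 92.9 ± 4.54 CPM and *Tm7sf2*, a sterol reductase, from 2.19 ± 0.497 to 25.9 ± 3.52 CPM. The groups did not overlap in any of these genes. Among the 2 members that did not pass the test was the isomerase *Ebp* (log2 fold change -0.13 ± 0.07, adjusted p = 0.1). The master regulator *Srebf2* rose from 242 ± 8.94 to 433 ± 8.67 CPM, while *Srebf1* was at 95.4 ± 3.94 and 95.3 ± 2.59 CPM. *Ebp* and both regulators were named after their values were seen.

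**Figure D3:**
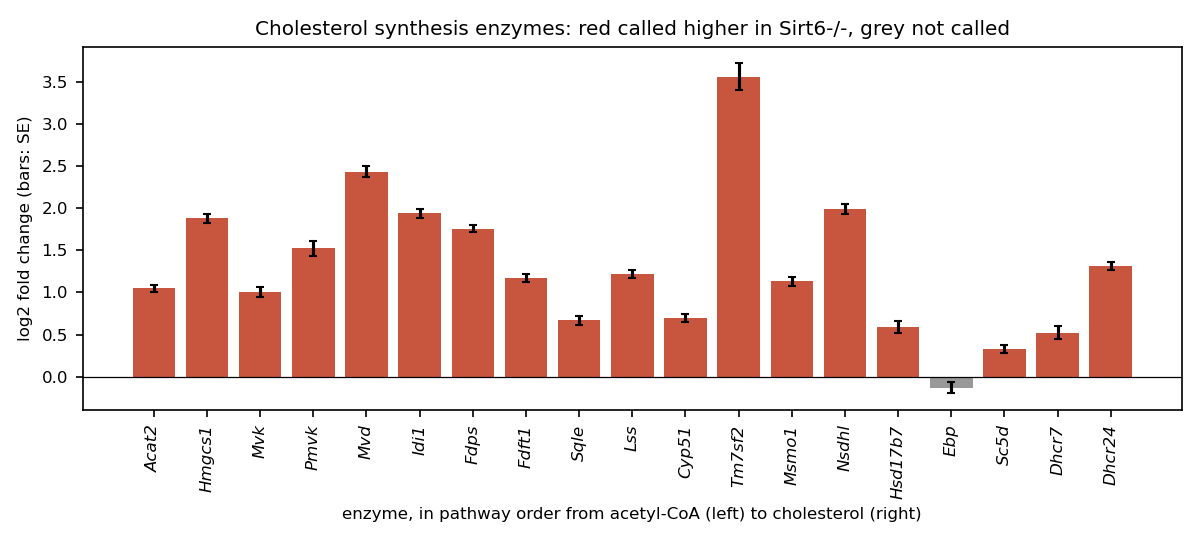
Log2 fold change (Sirt6-/- over WT, error bars are SE) of cholesterol synthesis enzymes in pathway order. All bars shown except that of Ebp are above 0 and called higher, and Tm7sf2 and Mvd are the tallest.

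The promoter of *Hmgcs1* is shown because it is the one promoter of the list with a sterol regulatory element spelled TCACNCCAC (both strands searched). Capitals mark the element, at -137. The same letters were in 1.24% of all promoters in the table, in 1 of 17 tested members of the sterol list with a promoter there and in none of 17 members of the fatty acid list.
Hmgcs1, chr13:119690101-119690400, plus strand: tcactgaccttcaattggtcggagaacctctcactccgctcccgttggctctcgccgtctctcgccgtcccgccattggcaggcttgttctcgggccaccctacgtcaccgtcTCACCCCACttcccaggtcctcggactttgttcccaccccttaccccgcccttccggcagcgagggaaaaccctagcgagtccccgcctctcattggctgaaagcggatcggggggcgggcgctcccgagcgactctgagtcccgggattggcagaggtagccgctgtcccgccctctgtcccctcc
Fatty acid synthesis went the same way, with 13 of 20 tested genes higher and 3 lower (median log2 fold change 0.81). The desaturase *Scd2* rose from 1105 ± 77.6 to 2688 ± 99.1 CPM, and the elongase *Elovl6* from 60.2 ± 2.89 to 199 ± 2.54 CPM. *Elovl5* fell from 182 ± 3.07 to 124 ± 3.14 CPM. Of 17 tested adipocyte and lipid storage genes 11 rose and 2 fell. The lipid droplet coat gene *Plin4* rose from 0.297 ± 0.273 to 15.2 ± 0.953 CPM and the early adipogenic factor *Cebpd* from 39.4 ± 0.534 to 192 ± 13.8 CPM, but lipoprotein lipase (*Lpl*) fell from 162 ± 37.7 to 0.616 ± 0.199 CPM. The NAD list, with SIRT6's own cosubstrate, had 13 higher and 3 lower of 19 tested genes, and *Nnmt*, which consumes nicotinamide by methylating it, fell from 28.4 ± 3.79 to 0.0396 ± 0.0343 CPM.

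Genes of ribosome production were lower. All 51 listed Myc-network and ribosome biogenesis genes were tested, and 43 fell and 3 rose (median log2 fold change -0.47). The 3 that rose, *Mxd4*, *Mxd1* and *Mnt*, encode repressors that compete with Myc for its partner Max, and *Mxd3*, another repressor of this kind, named after its value was seen, fell from 16.2 ± 1.68 to 13.2 ± 0.501 CPM. *Mycn* (chromosome 12 from 12936093 to 12941914) had 108, 81.8 and 110.3 CPM in WT and 4.996, 5.76 and 3.28 CPM in *Sirt6-/-* (log2 fold change -4.42 ± 0.16, adjusted p = 2.2e-12). *Myc* itself, named after its value was seen, did not pass the test, with 140.2 ± 14.2 and 148 ± 1.41 CPM. The nucleolar protein nucleolin (*Ncl*) fell from 2008 ± 99.2 to 946 ± 29.03 CPM and *Wdr12*, needed for the large subunit, from 77.9 ± 5.36 to 32.6 ± 3.23 CPM. The proteins of the finished ribosome did not follow: of 79 tested cytosolic ribosomal protein genes 45 rose and 9 fell, by a median of 0.17. These genes have near-identical processed copies in the genome, so single values are uncertain. The amino acid response was lower as well, with 28 of 37 tested ATF4 targets and tRNA synthetases down and 5 up (median -0.55). *Trib3* fell from 34.98 ± 8.97 to 6.73 ± 0.636 CPM and *Atf5* from 123 ± 14.6 to 32.3 ± 1.46 CPM. Of 19 enzymes of the pentose phosphate, serine and one-carbon pathways 14 fell and 4 rose (median -0.65). The pentose phosphate enzymes were split: *G6pdx*, *Pgls* and *Pgd* rose, while *Rpia*, *Rpe*, *Tkt* and *Taldo1* fell. The other rise was the one-carbon enzyme *Mthfd2l*. This split was noticed after the calls were seen. *Psph*, the last step of serine synthesis, fell from 76.2 ± 12.2 to 21.3 ± 2.63 CPM.

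Targets of p53 were lower although *Trp53* was not. Of 34 tested p53-induced genes 21 fell and 9 rose (median -0.61), and 14 fell at least 2-fold. *Cdkn1a*, the p21 cell cycle inhibitor (chromosome 17 from 29090976 to 29100727), had 40.6, 25.9 and 23.6 CPM in WT and 5.98, 6.18 and 6.17 CPM in *Sirt6-/-* (log2 fold change -2.30 ± 0.17, adjusted p = 1.6e-08). *Mdm2*, the ligase that degrades p53, fell from 98.5 ± 3.49 to 45.7 ± 3.43 CPM, the ectodysplasin A2 receptor *Eda2r* from 71.8 ± 14.4 to 3.51 ± 0.118 CPM and *Pmaip1* (Noxa) from 8.29 ± 0.965 to 0.911 ± 0.176 CPM. *Trp53* itself was at 214 ± 9.57 CPM in WT and rose to 272 ± 2.75 CPM, and *Cdkn2a*, which encodes p16 and p19ARF, rose from 70.4 ± 5.85 to 172 ± 11.9 CPM. The exceptions among the targets were large: *Perp* rose from 1.74, 2.34 and 1.92 to 51.7, 52.4 and 51.1 CPM and the death receptor *Fas* from 7.51 ± 1.02 to 52.8 ± 2.33 CPM. Without the genes of chromosomes 1 and 17, the list's median was -0.29, with 17 of 30 genes lower and 9 higher. The mutation status of *Trp53* was not tested.

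Cell cycle genes were slightly lower, by amounts that depend in part on the scaling. With library totals in place of TMM the median of all genes moved from 0.02 to 0.11. Of 47 DNA replication and G1/S genes 28 fell and 7 rose (median -0.24), and of 49 mitosis genes 29 fell and 9 rose (median -0.16). The one member of either list that changed at least 2-fold was the origin recognition gene *Orc2*, which fell from 80.3, 93.1 and 86.1 to 43.3, 42.1 and 39.4 CPM. *Rrm1*, the large subunit of ribonucleotide reductase, fell from 545, 529 and 544 to 301, 296 and 281 CPM, whereas topoisomerase *Top2a* rose from 553 ± 18.7 to 628 ± 39.9 CPM. In the DNA repair list 25 genes rose and 23 fell of 65 tested, and this list had no common direction (median 0.06). These counts lie near the 39.2% higher and 37.4% lower over all genes tested. The helicase *Wrn*, lost in Werner syndrome, rose from 18.2, 19.4 and 22.4 to 56.8, 61.3 and 52.4 CPM, and the mismatch repair gene *Msh6* fell from 238, 236 and 232 to 108, 113 and 108 CPM.

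Mitochondrial genes leaned downwards by small amounts, which likewise depend in part on the scaling. Of 71 oxidative phosphorylation subunits 42 fell and 13 rose (median -0.24), and of 37 genes of the TCA cycle and pyruvate entry 24 fell and 8 rose (median -0.27). *Atp5e*, a small subunit of the ATP synthase, fell from 37.3 ± 2.28 to 5.47 ± 1.11 CPM, the largest fall of the first list. Pyruvate carboxylase (*Pcx*), which refills the cycle, rose from 23.9 ± 1.99 to 125 ± 2.99 CPM. The glycolytic enzymes split, with 7 of 20 tested genes higher and 10 lower (median -0.12). The chaperones of the mitochondrial matrix *Hspd1*, *Hspa9* and *Hspe1* had log2 fold changes of -1.11 ± 0.04, -0.97 ± 0.04 and -0.80 ± 0.06.

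Genes of the extracellular matrix went in both directions. Of 34 tested collagen chains 14 rose and 13 fell, near the shares over all genes tested (39.2% higher and 37.4% lower). At least 2-fold changes were found for 10 in each direction (29.4% each), against 17.5% higher and 11.8% lower over all genes tested. The network-forming collagens of basement membranes were lower. *Col4a1* (chromosome 8 from 11198423 to 11312826) had 1977, 1752 and 1946 CPM in WT and 5.21, 5.39 and 4.42 CPM in *Sirt6-/-* (log2 fold change -8.56 ± 0.08, adjusted p = 3.7e-18). *Col4a2* fell from 1078, 899 and 982 to 3.98, 5.12 and 3.101 CPM, and *Col4a6* from 274 ± 47.8 to 3.35 ± 0.549 CPM. In all 3 genes the WT samples were more than 50 times above the *Sirt6-/-* samples. *Col4a5*, the head-to-head partner of *Col4a6*, fell less, from 503 ± 69.8 to 139 ± 3.94 CPM, and was named after its value was seen. *Col4a1* and *Col4a2* are read from opposite strands, with their annotated starts 21 bases apart and their first bases overlapping. The stretch that both start from is shown because the 2 genes fell together, and it reads towards *Col4a1*.
Col4a1, chr8:11312777-11313076, minus strand: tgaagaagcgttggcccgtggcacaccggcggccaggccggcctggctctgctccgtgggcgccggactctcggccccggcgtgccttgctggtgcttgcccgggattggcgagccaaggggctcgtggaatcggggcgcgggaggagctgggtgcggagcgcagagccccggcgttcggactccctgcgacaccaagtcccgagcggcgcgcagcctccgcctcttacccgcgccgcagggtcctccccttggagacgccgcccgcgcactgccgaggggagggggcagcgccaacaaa
Other basement membrane genes went in both directions. The laminin chain *Lama5* fell from 369 ± 29.4 to 55.1 ± 6.62 CPM and nidogen-2 (*Nid2*) from 444 ± 108 to 64.4 ± 2.83 CPM. The laminin chain *Lama2* rose, with log2 fold changes of 4.90 to 5.81 under the alternative settings given below. Of 32 tested integrins and laminins 14 rose and 15 fell.

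Of the 10 fibril-forming chains tested 5 fell, 3 rose and 2 did not pass the test. *Col1a1*, *Col3a1*, *Col5a1*, *Col5a2* and *Col5a3* were lower (*Col5a1* and *Col5a3* were named after their values were seen), with *Col5a2* falling from 3895 ± 342 to 1654 ± 84.2 CPM and *Col3a1* from 2170 ± 509 to 1120 ± 49.96 CPM. *Col2a1*, the main collagen of cartilage, rose from 0.4104 ± 0.213 to 267 ± 25.8 CPM, and its partner *Col11a1* from 6.55 ± 0.326 to 134 ± 14.98 CPM. *Col6a3*, a chain of the beaded filaments around cells, rose from 9.72, 12.7 and 9.71 to 659.6, 706 and 610.1 CPM. The 2 chains of type I collagen went in opposite directions. *Col1a1* had 8831, 7271 and 9232 CPM in WT and 2312, 2252 and 2390 CPM in *Sirt6-/-* (log2 fold change -1.87 ± 0.07), while *Col1a2* rose from 4609 ± 535 to 7611 ± 237 CPM. Per length, the mean RPKM of *Col1a1* and *Col1a2* were 1739 and 867 in WT and 507 and 1520 in *Sirt6-/-*, so the order of the 2 chains was reversed. Of 26 tested elastic fibre and leucine-rich proteoglycan genes 19 rose and 5 fell (median 1.26). Asporin (*Aspn*) rose from 0.556 ± 0.0545 to 191 ± 13.2 CPM and *Mfap2*, a microfibril protein, from 0.452 ± 0.152 to 27.4 ± 3.23 CPM, whereas elastin (*Eln*) fell from 3.91 ± 0.568 to 0.0697 ± 0.0459 CPM and fibromodulin (*Fmod*) from 107 ± 28.9 to 0.765 ± 0.175 CPM. *Timp3*, an inhibitor of matrix proteases, fell from 4106 ± 157 to 396 ± 5.46 CPM, and the collagen crosslinker *Lox* rose from 1409 ± 151 to 3974 ± 69.03 CPM.

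**Figure D4:**
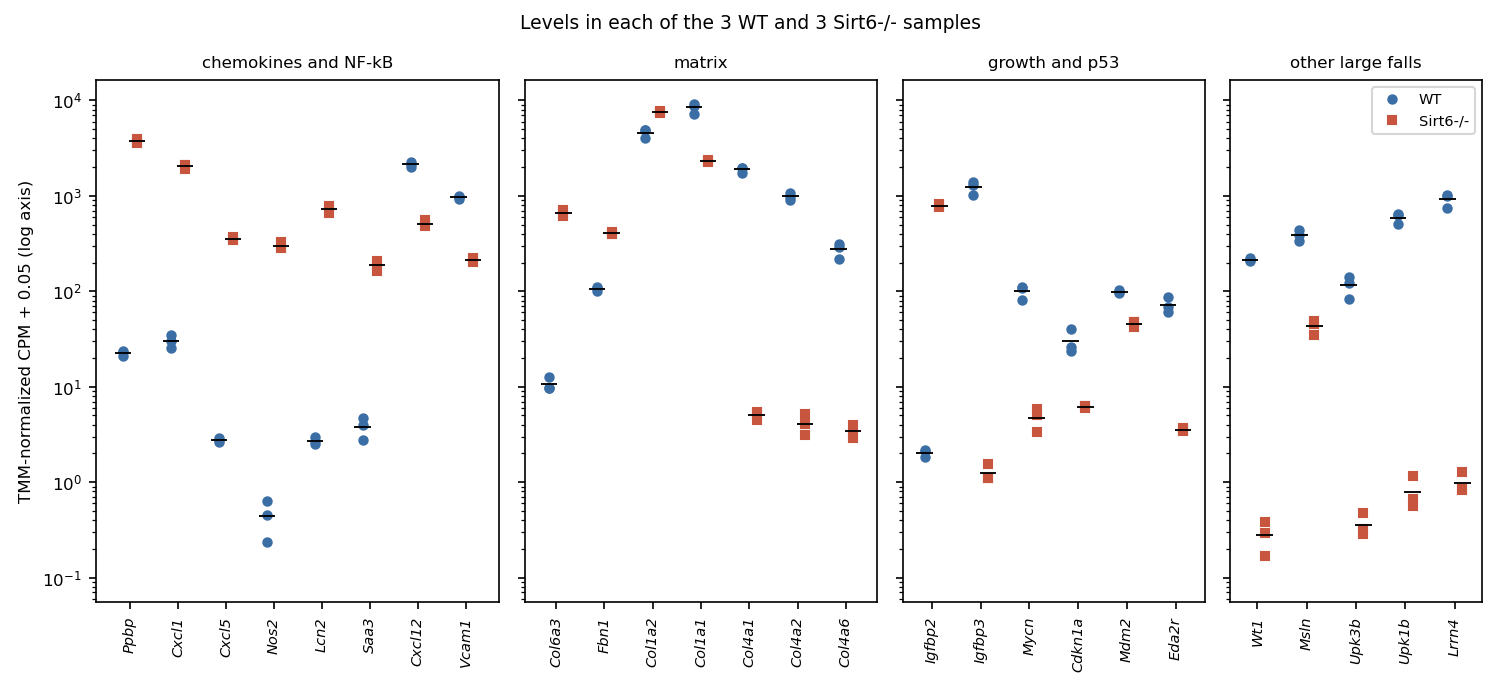
TMM-normalized CPM plus 0.05 (log axis) of selected genes in each of the 3 WT (blue circles) and 3 Sirt6-/- samples (red squares), with black lines at the group means. The groups do not overlap in any gene shown. Differences of more than 100-fold include the rises of Nos2, Lcn2, Ppbp, Cxcl5 and Igfbp2. They also include the falls of Col4a1, Col4a2, Igfbp3, Wt1, Lrrn4, Upk1b and Upk3b. The genes of the last panel were grouped after their values were seen.

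Transcription factors that pattern the embryo differed between the cells. Of 94 listed patterning factors other than Hox genes 63 were tested, and 39 rose and 17 fell, with 34 and 15 changing at least 2-fold. *Pax9*, a factor of pharyngeal pouches and the vertebral column, rose from 0.659 ± 0.0353 to 58.2 ± 4.21 CPM and the limb mesenchyme factor *Prrx1* from 25.3 ± 1.097 to 713 ± 35.9 CPM. *Nkx3-2*, which acts early in cartilage, had no read in any WT sample and 200, 107 and 226 reads in *Sirt6-/-*, at least 171-fold higher when the WT group is set to 3 counts. *Pax3* had 138, 142 and 134 reads in WT and none in *Sirt6-/-*, at least 143-fold lower. *Hand2*, a factor of heart and limb, fell from 112 ± 9.96 to 0.198 ± 0.102 CPM. Hox genes, which encode position along the body axis, had no common direction as a list. Of 39 listed 21 were tested, and 8 rose and 9 fell (median log2 fold change 0.004). These shares lie near the 39.2% higher and 37.4% lower over all genes tested. The rises were all in the HoxA and HoxB clusters, such as *Hoxa3* from 6.75 ± 0.3896 to 39.96 ± 0.866 CPM, and 1 HoxA and 2 HoxB genes fell. All 5 tested HoxD genes fell, such as *Hoxd8* from 44.1 ± 4.87 to 8.06 ± 1.34 CPM. The largest fall was that of *Hoxc13* in the HoxC cluster, with log2 fold changes of -8.06 to -6.83 under the alternative settings given below. The pattern by cluster was noticed after the values were seen.

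Among the 10 largest falls, among genes whose log2 CPM averaged 3 or more, were *Wt1* and *Lrrn4*. *Wt1*, the Wilms tumour factor, known from mesothelium, the lining of body cavities (chromosome 2 from 105126529 to 105173616), had 214, 207 and 221 CPM in WT and 0.329, 0.241 and 0.117 CPM in *Sirt6-/-* (log2 fold change -9.85 ± 0.12, adjusted p = 2.6e-17). *Lrrn4* fell from 922 ± 157 to 0.934 ± 0.261 CPM. Further genes known from mesothelium, and *Krt8*, were picked after their values were seen, with no fixed list. *Upk1b* fell from 591 ± 71.7 to 0.746 ± 0.324 CPM and *Upk3b* from 116 ± 28.8 to 0.308 ± 0.0999 CPM. Mesothelin (*Msln*) fell less, from 387 ± 50.3 to 43.2 ± 7.44 CPM. Keratins, which mesothelium also expresses, did not all follow: *Krt7* fell from 16.7 ± 2.87 to 3.03 ± 0.313 CPM, *Krt8* did not pass the test (8.74 ± 0.851 and 7.47 ± 1.06 CPM) and *Krt19* rose from 2.08 ± 0.29000 to 3.696 ± 0.465 CPM. Surface markers of fibroblasts differed too. *Thy1* and *Pdpn* fell from 23.8 ± 5.21 to 0.459 ± 0.491 CPM and from 229 ± 7.79 to 22.3 ± 2.51 CPM, while *Cd34* rose from 4.21 ± 0.422 to 511 ± 6.99 CPM and *Ly6a* (Sca-1) from 4.505 ± 0.742 to 225 ± 20.2 CPM. Whether WT and *Sirt6-/-* MEFs held different kinds of mesenchymal cells was not tested.

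Adhesion genes of the clustered protocadherins were mostly higher. Of 56 listed cadherins and protocadherins 37 were tested, and 28 rose and 5 fell (median 2.09). All 14 tested Pcdhb genes, which belong to the clusters that give neurons their individual surface codes, rose, and 7 others had too few reads. A window of 20 neighbouring genes from *Wdr55* to *Pcdhb21* on chromosome 18 (from 36760220 to 37833296) had a median log2 fold change of 2.92, with 16 genes higher and 2 lower. Many genes of the list were weak, and 27 of the 56 stayed under 1 CPM in all 6 samples. A gene near 0 in WT could be tested only by being higher in *Sirt6-/-*. The count of Pcdhb rises and the window's median therefore depend in part on this filter. *Pcdhgb6* rose from 0.555 ± 0.1703 to 30.2 ± 1.29 CPM and *Pcdhgb8* fell from 8.04 ± 0.755 to 0.438 ± 0.215 CPM. Genes of the Pcdhg cluster share their last exons, so their single values are uncertain. Of the classical cadherins *Cdh3* fell from 351 ± 39.3 to 0.881 ± 0.212 CPM and *Cdh2* (N-cadherin) from 322 ± 16.1 to 129.8 ± 3.13 CPM, and *Cdh11*, the cadherin of mesenchyme, rose from 422 ± 18.98 to 615 ± 20.5 CPM.

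Genes of growth factor signalling went in both directions. Over all genes tested 39.2% were higher and 37.4% lower, and the IGF and Wnt counts below lie near these shares. *Igfbp3*, an IGF-binding protein (chromosome 11 from 7206086 to 7213923), had 1296, 1014 and 1399 CPM in WT and 1.05, 1.51 and 1.05 CPM in *Sirt6-/-*, and its relative *Igfbp2* had 2.05, 1.78 and 2.103 CPM in WT and 762, 794 and 817 CPM in *Sirt6-/-* (log2 fold changes -10.00 ± 0.15 and 8.64 ± 0.07). *Grb10*, an imprinted brake on insulin and IGF signalling, fell from 521 ± 7.03 to 4.23 ± 0.168 CPM, and the imprinted gene *Ndn* rose from 0.185 ± 0.107 to 33.8 ± 1.56 CPM. The IGF and imprinted list as a whole had 16 genes higher and 17 lower of 40 tested. Among fibroblast growth factors *Fgf5* fell from 298 ± 24.9 to 0.308 ± 0.0209 CPM and *Fgf7* rose from 8.34 ± 0.636 to 472 ± 20.3 CPM, with the receptor *Fgfr1* rising from 116 ± 6.81 to 1074 ± 16.8 CPM. In the Wnt list 20 genes rose and 19 fell of 45 tested. Genes of 2 secreted Wnt amplifiers went in opposite directions, *Rspo2* rising from 1.13 ± 0.605 to 232 ± 5.05 CPM and *Rspo1* falling from 34.4 ± 7.505 to 0.979 ± 0.335 CPM. In the TGF-beta and BMP list 16 genes rose and 22 fell of 45 tested, and the ligand *Gdf6* fell from 124 ± 18.2 to 0.118 ± 0.0764 CPM.

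The changes were not spread evenly over the genome. Of the 13206 tested genes, 12626 had a position on GRCm38. On chromosome 1, 426 of 713 genes (59.8%) were lower and 159 higher, with a median log2 fold change of -0.46, and each of the 3 *Sirt6-/-* samples set against the WT mean gave -0.44 to -0.42. The shift ran along the whole chromosome: when its genes were split by position into 3 blocks of equal number, the first, middle and last had medians of -0.49, -0.46 and -0.44. Chromosome 17 had 364 of 632 genes lower (57.6%) and a median of -0.30. Chromosomes 19, 4, 8 and 13 were shifted upwards, with medians of 0.34, 0.33, 0.26 and 0.23, and on chromosome 4, 448 of 778 genes (57.6%) were higher. The X chromosome was divided, with a median of 0.52 in its first block of genes, which ended at 71156056, and of -0.27 and -0.16 in the other two. The other chromosomes had medians between -0.12 and 0.16. The shift was small beside the changes of most genes named above, and lists without the genes of chromosomes 1 and 17 had medians of -0.46 for ribosome biogenesis, 1.04 for NF-kB, 1.15 for sterol synthesis and 0.65 for collagen chains (with them -0.47, 0.92, 1.09 and 0.26). How far the chromosome of a gene accounts for its own change was not tested beyond these values.

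**Figure D5:**
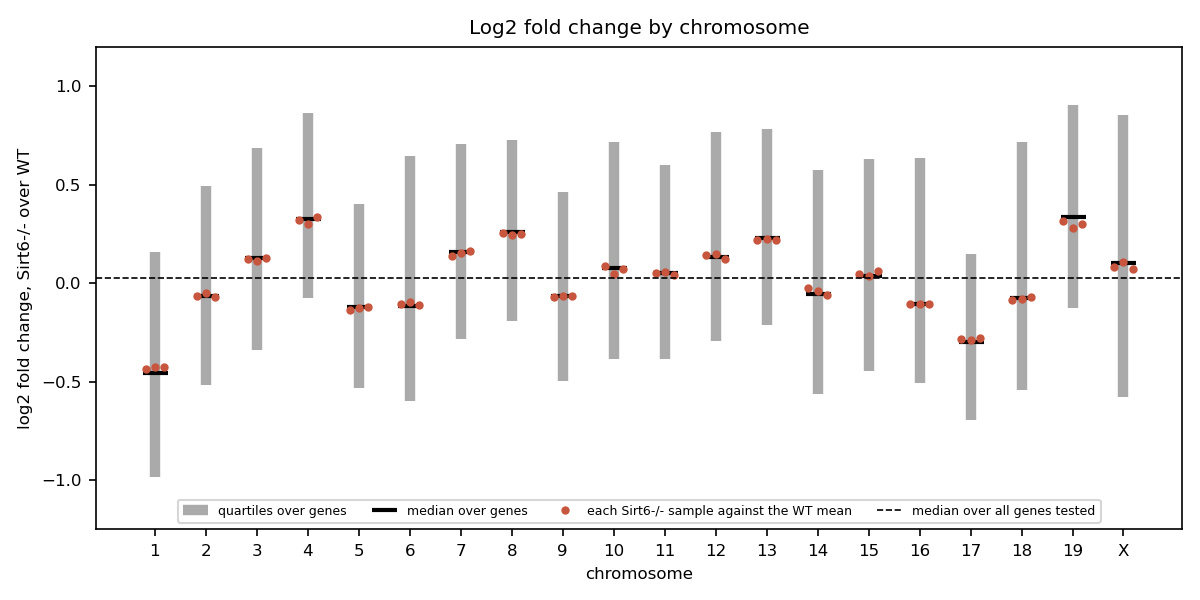
Median log2 fold change (Sirt6-/- over WT) of tested genes by chromosome (black), with quartiles over genes (grey) and the median of each Sirt6-/- sample against the WT mean (red). Chromosomes 1 and 17 lie lowest and chromosomes 19 and 4 highest, and the 3 samples of each chromosome lie close together.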

How the data were processed

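RNA-seq libraries from oligo(dT)-selected mRNA were analysed for 6 samples. The authors deposited 1 table per sample with a whole-number read count per gene and an RPKM value. The submitters' processing notes name the build mm10, and the aligner, counter and annotation are not given in the sources used here. Counts (depth 32187040 to 33837949) were tested in edgeR 4.0.16 (R 4.3.3) by quasi-likelihood F tests on genotype after filterByExpr and TMM scaling (prior count 0.125), with Benjamini-Hochberg adjusted p under 0.05 as the call. RPKM served for comparing levels between genes. Code was tested on simulated data. Counting error alone limits low values to 3 counts. The members and gene lists were chosen with earlier results of these data known. Named genes were *Sirt6*, the 10 largest rises and falls by log2 fold change (mean log2 CPM of at least 3) and by CPM, the 3 largest in each direction per list (mean log2 CPM of at least 1, no overlap between the samples of the genotypes), the member of each such list with the highest mean CPM, and every tested sirtuin, sex chromosome, fibroblast identity and growth brake gene. Positions came from GENCODE M21 (GRCm38) by symbol. Alternatives were DESeq2 1.42.0, other scalings, filters and prior counts, all 9 samples in 1 fit, a replicate block and leaving out each sample. Some genes are not reported here.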

Additional observations from a re-analysis of the deposited data

How the results depend on the processing

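The count of genes at least 2-fold higher in *Sirt6-/-* was 1487 when at least 10 counts were required in every sample, against 2315, since that filter tests 11597 genes and removes those near 0 in one genotype. Under every other alternative the 5 counts of called genes stayed within 1.5 times their values. Of 10114 calls, 10067 kept their direction and call with DESeq2 size factors, 9823 with the DESeq2 Wald test, 10074 with all 9 samples in 1 fit, 9976 without the filter and 9474 to 9787 without any 1 sample, when 9651 to 10217 genes were called. Scaling by library totals kept 9493 and moved the median of all genes from 0.02 to 0.11 and the higher share of calls from 51.2% to 57.3%. The genotypes share replicate numbers, but same-numbered samples did not deviate together (r of -0.01, 0.06 and 0.03 across genes), so the numbers pair nothing. With a replicate block 10041 genes were called and 9969 of the calls were kept. Of 385 named genes tested, 376 kept their direction and side of the threshold under each alternative that gave them a value (59 of the 385 gave none with at least 10 counts in every sample), *Bgn*, *Ddr2*, *Plxnb2*, *Rpl36* and *Sirt7* lost their call under at least 1, *Gnas*, *Kdm5d*, *Nanog* and *P4hb* gained one, and none reversed. Leaving out chromosomes 1 and 17 was chosen after seeing the data.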

Other observations

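Stress and detoxification genes went in both directions. Over all genes tested 39.2% were higher and 37.4% lower, and the heat shock and xenobiotic counts below lie near these shares. Of 30 tested heat shock genes 13 rose and 14 fell. The inducible chaperone *Hspa1b* rose from 3.61 ± 0.375 to 111 ± 3.71 CPM, a value it may share with its near-identical copy *Hspa1a*, while the constitutive *Hsp90ab1* fell from 4883 ± 82.2 to 3207 ± 18.99 CPM. Among NRF2, glutathione and antioxidant genes 22 rose and 15 fell of 43 tested. Extracellular superoxide dismutase (*Sod3*) rose from 4.51 ± 0.465 to 110.4 ± 4.33 CPM and the iron store ferritin heavy chain (*Fth1*) from 1327 ± 78.2 to 3075 ± 156 CPM, whereas the microsomal glutathione transferase *Mgst1* fell from 108 ± 18.6 to 2.08 ± 0.219 CPM. Xenobiotic enzymes had 9 genes higher and 9 lower of 21 tested: the carbonyl reductase *Cbr2* rose from 1.79 ± 0.174 to 190.2 ± 16.3 CPM, and *Cyp1b1* fell from 1059 ± 82.5 to 437 ± 12.9 CPM.

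In the unfolded protein response 13 genes rose and 7 fell of 25 tested. The chaperone calreticulin (*Calr*) rose from 1151 ± 38.05 to 2188 ± 44.9 CPM, and 2 sensors of the response fell, *Ern1* (IRE1) from 63.3 ± 9.704 to 15.5 ± 0.776 CPM and *Atf6* from 137 ± 5.55 to 47.2 ± 1.72 CPM. Of 49 lysosome and autophagy genes 19 rose and 14 fell, against 39.2% higher and 37.4% lower over all genes tested. The protease cathepsin L (*Ctsl*) rose from 464 ± 15.2 to 1598 ± 112 CPM, while *Tfeb*, the transcription factor of lysosome formation, fell from 54.1 ± 2.54 to 14.1 ± 0.676 CPM. Of 18 clock genes 12 rose and 6 fell. *Per3* rose from 8.85 ± 1.24 to 22.1 ± 0.988 CPM and the clock repressor *Bhlhe40* fell from 242 ± 7.23 to 52.7 ± 2.71 CPM. Among DNA methylation and histone modifying enzymes 29 rose and 15 fell of 63 tested, with *Ezh1*, a methyltransferase of Polycomb complexes, rising from 12.2 ± 1.88 to 67.6 ± 1.54 CPM and the acetyltransferase *Kat2b* falling from 112 ± 10.8 to 22.3 ± 2.17 CPM. In the YAP and serum response list 11 of 29 genes rose and 13 fell, near those shares over all genes tested. The YAP partner *Tead1* fell from 1385 ± 89.9 to 212 ± 7.36 CPM and the YAP target *Ctgf* from 549 ± 13.4 to 96.5 ± 7.77 CPM, while *Ankrd1*, also a YAP target, rose from 14.5 ± 1.49 to 65.03 ± 4.48 CPM and *Dusp1*, a serum response gene, from 9.15 ± 0.736 to 52.9 ± 4.67 CPM.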
